A study of Drosophila melanogaster with 34 samples.

Results

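The gap and pair-rule genes that divide the Drosophila melanogaster embryo into segments were followed across embryos with a mutant aub father, embryos with a mutant aub mother and wild-type (WT) embryos. They were the 5 gap genes hb, Kr, kni, gt and tll and the 5 pair-rule genes eve, ftz, h, run and odd, taken by their symbols from a table of embryo messenger RNA counts. All 10 were among the 13931 rows of that table, and all 10 passed the filter on low counts that left 10371 genes for testing. ftz reached 10 counts in 2 libraries, both WT, and so passed through the group in which it was high.

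The study comprised 34 samples, of which 12 were the embryo libraries used here. Their titles say total RNA, while their counts are labelled mRNA. The rest were small RNA samples from male reproductive tissue and sperm. These were WT, aub and piwi sperm, WT testis, and total RNA and PIWI IP of seminal vesicles. Column names mark 6 of the 12 libraries as batch 2, and the other 6 are called batch 1. This gives 5 groups: paternal aub in batch 1 (3 libraries) and batch 2 (2 libraries), maternal aub in batch 2 (2 libraries), and WT in batch 1 (3 libraries) and batch 2 (2 libraries). The gene aub encodes a PIWI-clade Argonaute protein that binds piRNAs, the small RNAs that silence transposable elements in the germ line. All 12 embryo columns have Old as the first word of their name, and no label explains it. Neither the aub allele, the embryos' own genotype nor an age in hours or stages is given, and nothing says that the libraries of a group came from separate crosses, so the p-values may measure technical spread alone. The 3 aub columns of batch 1 name no parent and were taken as paternal because the 2 maternal samples match the columns marked female.

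Segmentation starts from maternal gradients laid down in the egg. These switch on gap genes, transcription factors expressed in broad overlapping domains, and the gap proteins in turn set the stripes of the pair-rule genes, which then position the segment polarity genes. The whole cascade runs in the first hours of development, around and just after the syncytial blastoderm, and several of its members are used again later in the nervous system and other organs.

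Library totals ran from 6129427 to 7926235 assigned counts in paternal aub batch 1, 4634192 to 16289732 in paternal aub batch 2, 4147539 to 12274261 in maternal aub batch 2, 2776116 to 8816293 in WT batch 1, and 1690431 to 7286276 in WT batch 2. The limit set by 3 counts was therefore 0.168 CPM (counts scaled to the library's adjusted total) in the deepest library and 1.68 CPM in the shallowest, and it covers counting error alone. The messenger RNA of aub averaged 4.36 ± 0.50 CPM in paternal aub and 29.7 ± 20.6 CPM in WT embryos of batch 1 (SD, n = 3 each), and piwi, which the labels do not name as altered in embryos, averaged 7.24 ± 3.15 and 45.4 ± 35.3 CPM in the same groups. In batch 2, aub averaged 11.1 ± 5.70 CPM in paternal aub, 4.51 ± 2.97 CPM in maternal aub and 4.93 ± 0.62 CPM in WT (SD, n = 2 each). The level of aub in embryos therefore does not check the parental labels.

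In batch 1, hb, run, ftz and odd were lower and h was higher in paternal aub than in WT embryos, by edgeR's quasi-likelihood test with adjustment over all genes. These 5 of 10 genes stand beside 43.5% of all genes tested that passed the same threshold of 0.05 (20.9% lower, 22.6% higher), so the share called was close to that of all genes, while the direction was mostly downward. The ftz call is no independent count, since the gene passed the filter through its high group, and without ftz 4 of 9 genes were called. In batch 2, 0 of the 10 passed in paternal aub against WT, in maternal aub against WT or in paternal against maternal aub, beside 0.0193%, 0.0675% and 0% of all genes. This fit shares 1 estimate of spread between batches, and replicates differed more in batch 1, so the numbers of calls in the batches are not directly comparable. Fits of only the 2 groups compared called more genes in batch 2, but 0 of the 8 members they tested. The high values of hb, run and ftz stood in the 3 WT libraries of batch 1, and the WT libraries of batch 2 lay near the aub libraries. Because whole embryos were sequenced, fewer expressing cells and less RNA per cell cannot be told apart in any of these values.

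**Figure D1:**
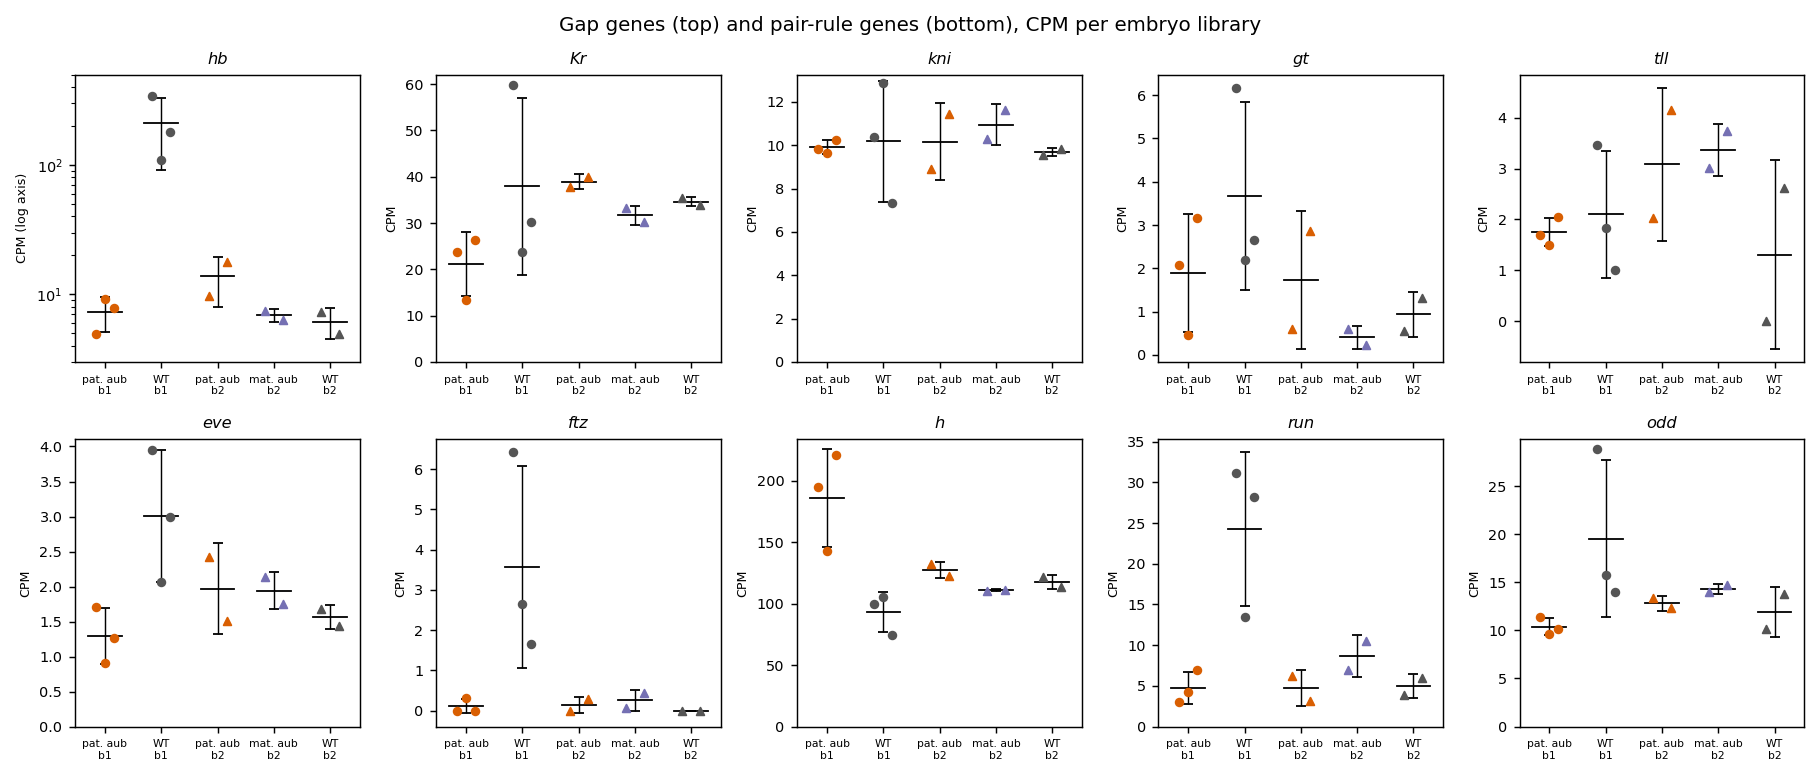
CPM of the 5 gap genes (top row) and 5 pair-rule genes (bottom row) in each of the 12 embryo libraries, grouped as paternal aub and WT of batch 1 (b1, circles) and paternal aub, maternal aub and WT of batch 2 (b2, triangles); horizontal lines are group means and bars are SD, and hb has a log axis. The 3 WT libraries of batch 1 sit at 108 to 339 CPM for hb, 13.5 to 31.1 CPM for run and 1.66 to 6.42 CPM for ftz, above every other library. The lowest of these ftz values lies just below the 1.68 CPM that 3 counts make in WT library 1 of batch 2, the shallowest library.

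Among the gap genes, hunchback (hb, FBgn0001180, chromosome 3R, 8690980 to 8697822 in the Release 6 assembly) encodes a zinc finger protein that patterns the anterior embryo and has both a maternal and a zygotic transcript. It stood at 4.92, 9.19 and 7.89 CPM in paternal aub and at 339, 108 and 180 CPM in WT libraries of batch 1. In batch 2 its levels were 9.71 and 17.9 CPM in paternal aub, 7.49 and 6.36 CPM in maternal aub, and 7.29 and 4.97 CPM in WT. The batch 1 groups did not overlap, and the lowest of the 3 WT libraries there was several times higher than any library of batch 2. By group means hb was 28.5-fold lower in paternal aub than in WT of batch 1, with a log2 fold change of -4.82 ± 0.43 (SE) and an edgeR adjusted p of 5.5e-06. The paternal aub contrast of batch 2 pointed the other way, at 1.28 ± 0.53 on the log2 scale with an edgeR adjusted p of 1, and both paternal libraries were above both WT libraries. Maternal aub differed from WT by 0.27 ± 0.54 on the log2 scale, with a 95% interval of -0.79 to 1.33.

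Krüppel (Kr, FBgn0001325, chromosome 2R, 25226611 to 25231394) encodes the zinc finger repressor of the central gap domain. Its levels were 23.8, 13.4 and 26.4 CPM in paternal aub and 59.8, 23.7 and 30.2 CPM in WT libraries of batch 1. Paternal aub libraries of batch 2 had 37.8 and 40.0 CPM, maternal aub libraries 33.2 and 30.3 CPM, and WT libraries 35.4 and 33.9 CPM. One paternal library of batch 1 was below all the others, and the batch 1 groups overlapped. The batch 1 difference was -0.83 ± 0.33 (log2, SE) and missed the threshold in edgeR (adjusted p = 0.0533), whereas DESeq2 passed it (adjusted p = 0.0467). Leaving out 1 library moved it between -0.34 (without WT library 1) and -1.10 (without WT library 2), with edgeR adjusted p from 0.00931 to 0.383 and a call in 3 of 6 fits. In batch 2 the paternal and maternal contrasts with WT were 0.17 ± 0.40 and -0.12 ± 0.40 on the log2 scale.

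For knirps (kni, FBgn0001320, chromosome 3L, 20692330 to 20695378), a nuclear receptor family repressor of the abdominal gap domain, the libraries were close to each other. Values were 9.84, 9.64 and 10.3 CPM in paternal aub and 10.4, 12.9 and 7.31 CPM in WT of batch 1. In batch 2 they were 8.90 and 11.4 CPM in paternal aub, 10.3 and 11.6 CPM in maternal aub, and 9.54 and 9.81 CPM in WT. The groups of batch 1 overlapped fully, and all 12 libraries lay between 7.31 and 12.9 CPM. The batch 1 difference was -0.06 ± 0.29 (log2, SE; edgeR adjusted p = 0.874), with a 95% interval of -0.62 to 0.50.

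The other two gap genes were scarce. Giant (gt, FBgn0001150, chromosome X, 2427113 to 2428967) encodes a basic leucine zipper repressor of the anterior and posterior gap domains, and it stood at 2.08, 0.452 and 3.16 CPM in paternal aub against 6.17, 2.19 and 2.66 CPM in WT of batch 1. In batch 2, gt had 0.607 and 2.86 CPM in paternal aub, 0.587 and 0.219 CPM in maternal aub, and 0.561 and 1.31 CPM in WT. The paternal and WT libraries overlapped in both batches, and the lowest single value was in maternal aub. Paternal against maternal aub gave 2.01 ± 0.94 on the log2 scale with an edgeR adjusted p of 1, from 54 summed counts in paternal and 9 in maternal libraries. It ranged from 0.38 without paternal library 2 to 3.01 without maternal library 1 of batch 2, so its size depended on single libraries. Tailless (tll, FBgn0003720, chromosome 3R, 30852315 to 30854400), the nuclear receptor family gene of the embryo's termini, had 1.70, 1.51 and 2.05 CPM in paternal aub and 3.46, 1.84 and 0.997 CPM in WT of batch 1. Its batch 2 values were 2.02 and 4.15 CPM in paternal aub, 3.01 and 3.73 CPM in maternal aub, and 0 and 2.62 CPM in WT, where the library at 0 was the shallowest, with a limit of 1.68 CPM. Groups overlapped for tll except that both maternal libraries were above both WT libraries. Its log2 differences were -0.27 ± 0.63 for paternal aub against WT in batch 1, 0.85 ± 0.74 for paternal aub against WT in batch 2 and 0.90 ± 0.75 for maternal aub against WT (SE), none of which passed.

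Among the pair-rule genes, even-skipped (eve, FBgn0000606, chromosome 2R, 9979319 to 9980795) encodes a homeodomain repressor of alternate parasegments. It stood at 1.70, 0.904 and 1.26 CPM in paternal aub and at 3.95, 2.07 and 2.99 CPM in WT libraries of batch 1. In batch 2 it had 2.43 and 1.51 CPM in paternal aub, 2.13 and 1.76 CPM in maternal aub, and 1.68 and 1.44 CPM in WT. Every paternal library of batch 1 was below every WT library of that batch, but the highest paternal and lowest WT values were close together. The difference of -1.19 ± 0.50 (log2, SE) did not pass (edgeR adjusted p = 0.0681). The WT libraries of batch 2 were also below those of batch 1, with a log2 fold change of -0.95 ± 0.60 and an edgeR adjusted p of 0.225.

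Fushi tarazu (ftz, FBgn0001077, chromosome 3R, 6864324 to 6866244) encodes a homeodomain activator expressed in the parasegments between those of eve. Its raw counts were 0, 2 and 0 in paternal aub and 26, 23 and 5 in WT libraries of batch 1. In batch 2 there were 0 and 5 counts in paternal aub, 1 and 2 counts in maternal aub, and 0 and 0 counts in WT. The gene was thus at or near 0 in 9 libraries and present in the 3 WT libraries of batch 1. Pooled over libraries, WT of batch 1 held 31.3 times the level of paternal aub of batch 1, with an exact 95% counting interval of 8.26 to 265 that rests on 2 counts in the paternal group, and edgeR gave an adjusted p of 0.00223. WT of batch 2 was lower than WT of batch 1 by at least 8.46-fold, the lower end of the exact 95% counting interval. Taking 3 counts over the batch 2 group (0.318 CPM) as the limit, the ratio was 10.8. The edgeR adjusted p was 0.00588, and this call depended on WT library 2 of batch 2. No fold change against WT is given for ftz within batch 2, where its WT level was 0 and its pooled aub levels were below that limit.

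Hairy (h, FBgn0001168, chromosome 3L, 8675759 to 8679253; RefSeq names it hry) encodes a basic helix-loop-helix repressor that acts early among the pair-rule genes and again in the nervous system. It was the one gene of the 10 called higher, with 195, 143 and 221 CPM in paternal aub and 99.5, 105 and 74.5 CPM in WT of batch 1. In batch 2 its levels were 132 and 123 CPM in paternal aub, 111 and 111 CPM in maternal aub, and 122 and 114 CPM in WT. All 3 paternal libraries of batch 1 were above every other library, and the remaining libraries lay between 74.5 and 132 CPM. Its group mean was 2.00-fold higher in paternal aub than in WT of batch 1, with a log2 fold change of 1.00 ± 0.23 (SE) and an edgeR adjusted p of 0.00301. The batch 2 contrasts were 0.11 ± 0.28 for paternal aub and -0.08 ± 0.28 for maternal aub against WT, with 95% intervals of -0.44 to 0.67 and -0.64 to 0.47.

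Runt (run, FBgn0003300, chromosome X, 20690670 to 20697321), the founding member of the Runx family of transcription factors, followed the same groups as hb. Its levels were 3.03, 4.22 and 6.95 CPM in paternal aub against 31.1, 13.5 and 28.3 CPM in WT libraries of batch 1. They were 6.27 and 3.14 CPM in paternal aub, 6.90 and 10.5 CPM in maternal aub, and 3.93 and 6.02 CPM in WT libraries of batch 2. The 3 WT libraries of batch 1 were above all 9 others, and the maternal aub libraries were the highest of batch 2. Paternal aub was 5.13-fold lower than WT in batch 1 by group means (log2 fold change -2.33 ± 0.42, SE; edgeR adjusted p = 5.22e-04). Maternal aub against WT in batch 2 gave 0.71 ± 0.53 on the log2 scale and did not pass (edgeR adjusted p = 1).

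Odd-skipped (odd, FBgn0002985, chromosome 2L, 3604224 to 3606756), a zinc finger repressor that refines the stripes of other pair-rule genes, had 11.4, 9.64 and 10.1 CPM in paternal aub and 28.9, 15.8 and 14.0 CPM in WT of batch 1. Batch 2 values were 13.4 and 12.3 CPM in paternal aub, 13.9 and 14.7 CPM in maternal aub, and 10.1 and 13.7 CPM in WT. One WT library of batch 1 was well above all others, and the other two lay close to the maternal aub libraries. The batch 1 log2 fold change was -0.91 ± 0.30 (SE; edgeR adjusted p = 0.0226), and the call was lost without paternal aub library 2 or WT library 1 of batch 1, where the adjusted p reached 0.144. The fit of the 2 groups alone also lost it (-0.94, edgeR adjusted p = 0.0729), as did that fit with a replicate block (-0.87, edgeR adjusted p = 0.122).

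Across the 10 genes, 9 had a negative log2 fold change in paternal aub against WT of batch 1, and their median was -0.92 against 0.07 for all genes tested. The groups did not overlap for 5 genes that were lower (4 without ftz) and 1 that was higher, beside 21.9% and 23.4% of all genes. In batch 2, 8 of the 9 genes other than ftz had a positive paternal contrast, with a median of 0.17 against 0.0034 for all genes, and hb, Kr and h did not overlap, all 3 higher, beside 20.5% of all genes that were higher and 18.2% that were lower. For maternal aub against WT, 6 of those 9 were positive with a median of 0.23 against 0.0079. Without overlap, 5 of those 9 were higher and 2 lower, beside 23.3% and 24.4% of all genes. With 2 libraries a group, such separation was common in the table. Unadjusted edgeR p-values in batch 2 were under 0.05 for 1 gene of the 10 (hb) in paternal aub against WT, 0 in maternal aub against WT and 1 (gt) in paternal against maternal aub, beside 2.2%, 2.18% and 2.22% of all genes. DESeq2 called 0 of the 10 in each of these contrasts, beside 0.0193%, 0.241% and 0.0482% of all genes.

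**Figure D2:**
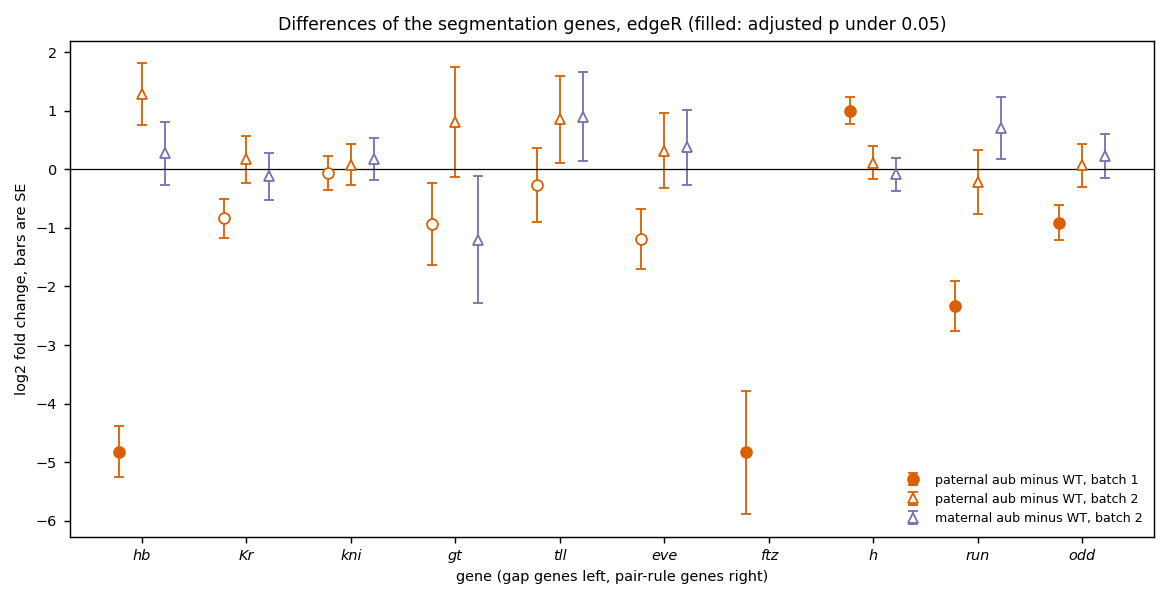
Log2 fold change (points) with its SE (bars) from the edgeR fit for each of the 10 genes in paternal aub against WT of batch 1 (circles), paternal aub against WT of batch 2 and maternal aub against WT of batch 2 (triangles), with filled points where the adjusted p was under 0.05; ftz is left out of the batch 2 contrasts because its WT level there was 0, and its batch 1 point rests on 2 counts in paternal aub. Filled points are all in batch 1, where hb is at -4.82, run at -2.33 and h at 1.00.

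The contrast of paternal aub with WT differed between the batches for hb and run, and by its adjusted p for ftz. For hb the difference, batch 2 minus batch 1, was 6.10 ± 0.68 on the log2 scale (edgeR adjusted p = 2.25e-04). For run it was 2.11 ± 0.69 (edgeR adjusted p = 0.0417), and for ftz the edgeR adjusted p was 0.0385, with no size given because WT of batch 2 was at 0. These 3 of 10 genes, all with a higher contrast in batch 2, stand beside 20.2% of all genes called in either direction and 10.9% called higher; without ftz, whose test is against counts of 0, they were 2 of 9. The hb call held in all 10 fits that each left out 1 library, while that of ftz was lost in 6 and that of run in 7 of the 10. The difference for h was -0.89 ± 0.36 on the log2 scale and did not pass (edgeR adjusted p = 0.102).

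The same difference can be read within each genotype. WT libraries of batch 2 were lower than WT libraries of batch 1 in 3 of 10 genes (2 of 9 without ftz), beside 40.1% of all genes called and 20.7% called lower. These were hb, with a log2 fold change of -5.17 ± 0.55 (edgeR adjusted p = 9.9e-06), run, with -2.19 ± 0.51 (edgeR adjusted p = 0.00333), and ftz as given above. Without overlap, 6 genes were lower (hb, gt, eve, ftz, run and odd) and h was higher, beside 31.6% and 30.9% of all genes. Paternal aub of batch 2 against paternal aub of batch 1 gave 0 called genes of the 10 in edgeR and in DESeq2, beside 14.3% and 18.4% of all genes. At an unadjusted edgeR p under 0.05 there were 2 of the 10 (hb and Kr), beside 29.3% of all genes. hb differed there by 0.93 ± 0.43 (edgeR adjusted p = 0.163), Kr by 0.88 ± 0.36 (edgeR adjusted p = 0.117) and h by -0.55 ± 0.26 on the log2 scale (edgeR adjusted p = 0.172). This comparison and that of the WT batches share libraries with the genotype contrasts of batch 1 and batch 2, so their values are not independent of them.

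Taken over both batches, the mean of the 2 paternal contrasts called 2 of the 10 genes, hb (log2 fold change -1.77 ± 0.33, edgeR adjusted p = 0.00508) and run (-1.28 ± 0.34, edgeR adjusted p = 0.0231), beside 14.5% of all genes. Maternal aub against the mean of both WT batches called hb alone of the 10 (-2.31 ± 0.46, edgeR adjusted p = 0.00686), beside 9.04% of all genes, although within batch 2 hb differed by 0.27 ± 0.54 on the log2 scale. Fits of 3 genotype groups, without a batch term and with an additive one, called 0 of the 10 in either contrast, with hb in paternal aub at -3.67 (edgeR adjusted p = 0.127) and -2.85 (edgeR adjusted p = 0.131).

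Genes above and below these 10 in the cascade were read from lists of textbook members. In paternal aub against WT of batch 1, 7 of 12 maternal coordinate genes, which set up the gradients, were lower and 0 higher, with a median log2 fold change of -1.61. Among them oskar (osk), which builds the germ plasm, was lower, at -3.79 ± 0.78 on the log2 scale (edgeR adjusted p = 0.0025) and exuperantia (exu), needed to localise bicoid RNA, was lower, at -3.78 ± 0.52 (edgeR adjusted p = 9.08e-05). Bicoid itself (bcd), the anterior morphogen that activates hb, stood at 4.76 ± 4.91 CPM in paternal aub and 18.9 ± 18.6 CPM in WT of batch 1 (SD, n = 3 each), and its difference of -1.93 ± 0.98 did not pass (edgeR adjusted p = 0.134).

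Zelda (zld), the pioneer factor that opens the first zygotic genes, averaged 108 ± 49.5 CPM in paternal aub and 690 ± 278 CPM in WT of batch 1 (SD, n = 3 each). That was a log2 fold change of -2.68 ± 0.39 (edgeR adjusted p = 1.1e-04). In batch 2, zld averaged 91.9 ± 42.7 CPM in paternal aub, 97.1 ± 1.97 CPM in maternal aub and 80.4 ± 17.3 CPM in WT (SD, n = 2 each). Of the 10 zygotic activators and cofactors on its list, 5 were lower and 1 higher in batch 1, with tramtrack (ttk), a repressor of pair-rule genes, at -2.09 ± 0.25 on the log2 scale (edgeR adjusted p = 3.1e-05).

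Further gap, head gap and related genes were called lower in 6 of 10 and higher in 1 of 10 cases in batch 1, with a median of -1.06. Huckebein (hkb), a terminal gap gene, was lower, at -2.17 ± 0.44 on the log2 scale (edgeR adjusted p = 0.00123), and buttonhead (btd), a head gap gene, at -1.82 ± 0.62 (edgeR adjusted p = 0.0266). Of 7 further pair-rule genes and relatives, 5 were lower and 0 higher, with a median of -1.37. Deadpan (dpn), a relative of h expressed in neural stem cells, was lower, at -3.32 ± 0.37 (edgeR adjusted p = 2.23e-05) and paired (prd) at -2.88 ± 0.77 (edgeR adjusted p = 0.00762). Outside WT of batch 1, prd was at most 1.14 CPM in any library, so like ftz it passed the filter through its high group. The prd call is therefore no independent count.

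Downstream of the pair-rule genes, 9 of 11 segment polarity genes were lower and 1 higher, with a median of -1.41. Patched (ptc), the Hedgehog receptor, averaged 31.9 ± 14.7 CPM in paternal aub and 260 ± 92.7 CPM in WT of batch 1 (SD, n = 3 each), and gooseberry (gsb) averaged 1.32 ± 0.42 and 13.1 ± 8.47 CPM in the same groups. The 8 Hox genes, which give segments their identity, had 0 calls in edgeR and in DESeq2 in that contrast, 1 at an unadjusted edgeR p under 0.05, and a median of 0.22. In the 3 contrasts between genotypes of batch 2, each of these lists had 0 calls in edgeR and in DESeq2, and at most 1 gene of a list had an unadjusted edgeR p under 0.05.

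**Figure D3:**
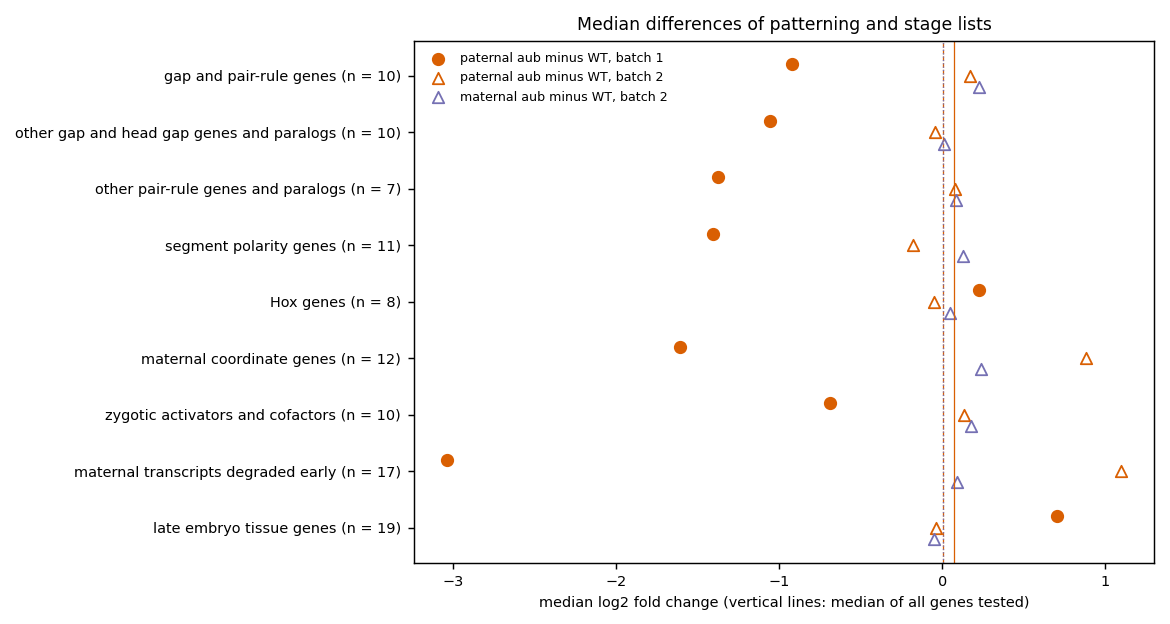
Median log2 fold change of the patterning and stage lists shown in paternal aub against WT of batch 1 (filled circles), paternal aub against WT of batch 2 and maternal aub against WT of batch 2 (open triangles), with the 10 segmentation genes in the top row (without ftz in batch 2), the number of genes tested beside each name, and vertical lines at the medians of all genes tested. The cellularisation list and the lists of other sources are not shown. The 4 tested cellularisation genes had medians of -1.30, 3.37 and 1.43 in these contrasts, in that order, and halo, among them, was at 0 in WT of batch 2. In batch 1 the medians run from -3.04 for maternal transcripts degraded early to 0.70 for late embryo tissue genes, with the 10 segmentation genes at -0.92.

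Sums of early degraded maternal transcripts moved with the same libraries, while some other markers of developmental time differed between batches in WT and in paternal aub. Maternal transcripts that are degraded early summed to 806 to 1310 CPM in paternal aub and 2352 to 4837 CPM in WT of batch 1, and to 1174 to 1400 CPM in paternal aub, 863 to 1094 CPM in maternal aub and 859 to 1026 CPM in WT of batch 2. Between WT batches, 14 of the 17 tested genes of the list were lower in batch 2 and 1 higher, beside 20.7% and 19.3% of all genes. The sums include gcl, which went the other way, with averages of 153 CPM in WT of batch 1 and 260 CPM in WT of batch 2. In batch 1, 14 of the 17 tested genes of that list were lower in paternal aub, among them cortex (cort), at -4.30 ± 0.58 on the log2 scale (edgeR adjusted p = 6.61e-05), and Cyclin B (CycB), at -3.90 ± 0.94 (edgeR adjusted p = 0.00615). Outside WT of batch 1, cort was at most 1.01 CPM in any library, so like ftz it passed the filter through its high group. The cort call is therefore no independent count. BicC was at 0 in all libraries. In paternal aub against WT of batch 2, the 17 tested genes had positive log2 fold changes with a median of 1.10, but 0 of them passed in edgeR or DESeq2, with 1 at an unadjusted edgeR p under 0.05; hb, at 1.28, had the same sign. The 3 WT libraries of batch 1, in which hb, run and ftz were high, were also the 3 with the highest sums of maternal transcripts. Within this group the order differed. The sums of libraries 1, 2 and 3 were 2367, 2352 and 4837 CPM, beside 339, 108 and 180 CPM for hb. In the same libraries run stood at 31.1, 13.5 and 28.3 CPM and ftz at 6.42, 2.65 and 1.66 CPM.

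Late embryo tissue genes of muscle, cuticle and nerve summed to 38247 to 52261 CPM in paternal aub and 15504 to 36676 CPM in WT of batch 1. In batch 2 the sums were 30399 to 33735 CPM in paternal aub, 31828 to 32687 CPM in maternal aub and 33065 to 35395 CPM in WT. In batch 1, 9 of 19 were higher in paternal aub and 0 lower, with the sodium channel gene para at 2.89 ± 0.42 (edgeR adjusted p = 9.93e-05) and the synaptic vesicle gene Syt1 at 2.62 ± 0.30 on the log2 scale (edgeR adjusted p = 2.46e-05). The paternal aub libraries of batch 1, where h was highest, had the 3 highest sums of this list. Of its 19 genes, 9 were called higher and 0 lower in WT of batch 2 than of batch 1, beside 40.1% of all genes called. In paternal aub, 4 were higher and 2 lower in batch 2, beside 14.3%. The gene obst-A averaged 32.3 CPM in paternal aub and 23.0 CPM in WT of batch 1. In batch 2 it averaged 439, 619 and 443 CPM in paternal aub, maternal aub and WT. The paternal aub libraries thus also differed between batches in this list. Genes of cellularisation, which mark the blastoderm, were scarce throughout, at 9.65 to 20.8 CPM in paternal aub and 22.9 to 65.2 CPM in WT of batch 1, and at 12.7 and 74.7 CPM in paternal aub, 3.73 to 12.1 CPM in maternal aub and 1.57 to 12.3 CPM in WT of batch 2. Sry-alpha, one of their defining genes, was at 0 in all 12 libraries, and the paternal library at 74.7 CPM was also the one with the highest hb, gt and tll of batch 2. The part of embryo age in the differences of the 10 genes was not tested: the word Old stands in the column names of every group alike, and no age in hours or stages is given.

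**Figure D4:**
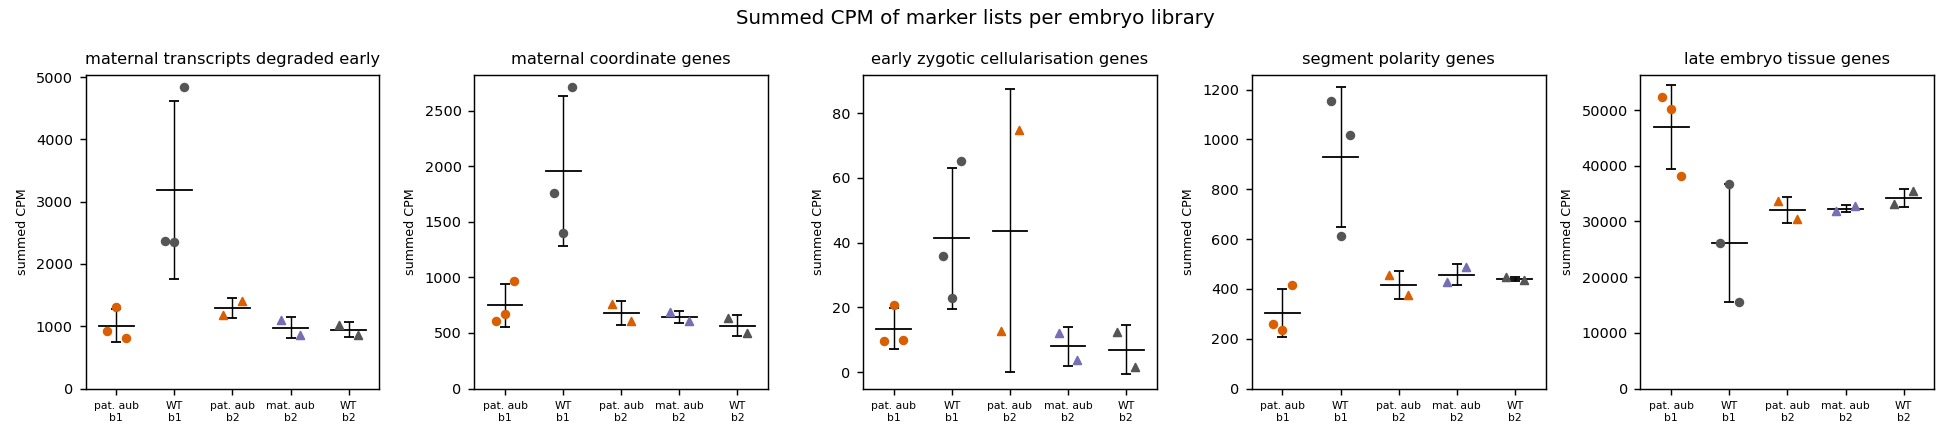
Summed CPM per library of 5 gene lists in paternal aub and WT of batch 1 (b1, circles) and paternal aub, maternal aub and WT of batch 2 (b2, triangles); horizontal lines are group means and bars are SD. The 3 WT libraries of batch 1 have sums of early degraded maternal transcripts of 2352 to 4837 CPM, above the 806 to 1400 CPM of the other 9 libraries.

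Markers of other sources were at low levels but differed between groups and libraries. Eggshell and follicle cell genes summed to 6.78 to 14.5 CPM in paternal aub and 7.71 to 29.4 CPM in WT of batch 1, sperm and testis genes to 3.61 to 7.95 and 2.76 to 23.5 CPM, and adult yolk and eye genes to 8.14 to 22.7 and 4.37 to 16.3 CPM in the same groups. In batch 2 the eggshell sums were 0.449 to 1.62 CPM in paternal aub, 0.661 to 2.19 CPM in maternal aub and 0.654 to 1.68 CPM in WT. The sperm and testis sums there were 1.79 to 3.04 CPM in paternal aub, 1.25 to 1.32 CPM in maternal aub and 1.12 to 1.83 CPM in WT, and the yolk and eye sums were 2.23 to 7.51, 2.41 to 3.23 and 1.68 to 1.83 CPM in the same groups. The eggshell gene dec-1 (listed in the table as 1-Dec) was lower in paternal aub than in WT of batch 1, at -2.49 ± 0.66 on the log2 scale (edgeR adjusted p = 0.0071), and lower in WT of batch 2 than in WT of batch 1, at -3.97 ± 0.97 (edgeR adjusted p = 0.0048). Like ftz, dec-1 passed the filter through WT of batch 1, so these calls are no independent counts. WT library 1 of batch 1, the highest of all for hb, ftz, run, odd, eve, gt and Kr, alone held the sperm and testis sum of 23.5 CPM and the eggshell sum of 29.4 CPM, while the other two WT libraries of that batch were at 2.76 and 3.32 CPM and at 7.71 and 13.6 CPM. Without that library, hb, ftz, run and h remained called in batch 1, and odd did not (-0.53 on the log2 scale, edgeR adjusted p = 0.144). The part of these other sources in the values of the 10 genes was not tested.

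Levels were compared between the genes as CPM per kilobase of the RefSeq gene span, which includes introns. In paternal aub of batch 1, h led at 53.3 ± 11.4, followed by Kr at 4.43 ± 1.44, odd at 4.09 ± 0.35 and kni at 3.25 ± 0.10 (SD, n = 3), with Kr and odd overlapping and h apart. hb, gt, eve, tll and run followed between 1.07 and 0.711, each of the first 4 overlapping the next, and ftz was last at 0.0523, apart from run. WT of batch 1 had hb first at 30.6 ± 17.2 and h next at 26.6 ± 4.70 (SD, n = 3), and these overlapped. The order h, Kr, odd and kni also held in all 3 groups of batch 2 with no overlap between neighbours, h at 36.4 in paternal aub, 31.8 in maternal aub and 33.7 in WT. The rank of hb thus varied from first in WT of batch 1 to eighth in maternal aub of batch 2.

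Over the 12 libraries, log2 CPM of hb and ftz moved together most closely among pairs of the 10 genes (Pearson r = 0.94), followed by hb and run and by ftz and run (both 0.83) and by eve and odd (0.82). The lowest pair was h and run, at -0.65. These correlations describe 12 libraries in 5 groups and carry no p, because the groups share the same split. Among 8668 genes of at least 5 CPM on average, the most like hb were the condensin subunit gene Cap-D2 (r = 0.98) and CycE, the G1 cyclin (0.98), and the most like run were jub (0.98) and baz (0.97), both genes of epithelial junctions or polarity. ftz was close to the ubiquitin protease gene Usp5 (0.95), and Kr was most like nvy (0.96) and fl(2)d (0.93). The closest to h were CG17839 (0.98) and ebony (e, 0.97), to eve CG4455 (0.95) and the segment polarity gene engrailed (en, 0.94), and to odd the neural precursor gene asense (ase, 0.94) and meso18E (0.90). For gt, tll and kni, which varied less or were scarce, the closest were CG5828 (0.85), CG6689 (0.88) and lin-28 (0.78).

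The small RNA tables of 18 sperm, testis and seminal vesicle libraries held few reads of these genes. Summed over the libraries, h had 1049 sense and 12 antisense counts, hb 101 and 3, odd 57 and 2, and kni 38 and 1. Kr had 14 sense and 15 antisense counts, and the other 5 genes had at most 9 on either strand. In sperm, h had 53 to 112 sense counts per library in aub mutants, 39 to 80 in piwi mutants and 25 to 59 in the libraries taken as WT sperm. The column names of these aub, piwi and WT libraries give no tissue. In CPM of the sense table that was 6.65 to 14.3 in aub, 5.20 to 11.4 in piwi and 6.63 to 8.14 in WT sperm (n = 3 libraries each), so the 3 groups overlapped. Sense h stood at 6.2 to 10.0 CPM in the seminal vesicle PIWI IP (n = 4) and 1.53 to 2.29 CPM in seminal vesicle total RNA (n = 2). Testis T1, T2 and T3, with 1 library each, had 0.288, 1.74 and 3.45 CPM from 1, 6 and 21 counts. Differences between these groups were not tested. The antisense reads, which could pair with the messenger RNA, were 0 for h in aub and piwi sperm and 2 in WT sperm, both in 1 of its 3 libraries. There were 4 in the PIWI IP, 0 in seminal vesicle total RNA and 1, 3 and 2 in testis T1, T2 and T3. Such counts are too low to compare groups.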

How the data were processed

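The authors deposited whole-number counts per gene for 12 embryo libraries and counts per feature, sense and antisense, for small RNA. Tools listed in the submitters' processing notes are Bowtie 1.2.3, Subread 2.0.0, featureCounts, SAMtools 1.8, Trim Galore 0.5.0 and cutadapt, with the builds BDGP6 and dm6, but not their roles; strand use is not stated, so reads of overlapping antisense genes cannot be told apart. The labels' protocols describe a small RNA library kit for the embryos too and name 2 preparation sites, not given per sample. Left unused were 3 columns in each small RNA file that no sample's label matched.

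The embryo counts were tested with edgeR 4.0.16 in R 4.3.3: filterByExpr, TMM factors, 1 quasi-likelihood fit of 5 groups over 12 libraries and Benjamini-Hochberg adjustment over 10371 genes (threshold 0.05). All libraries share 1 estimate of spread. Standard errors were taken as |log2 fold change| over √F, and 95% intervals are normal. CPM use TMM-scaled totals. Replicate pairs differed beyond counting error, with mean chi-square of 25.9 to 83.0 in batch 1 and 3.94 to 17.3 in batch 2. The procedure was tested on simulated data. Alternatives were RLE factors, DESeq2 1.42.0, no filter, fits of 2 groups, a replicate block, pooled batches and leaving out each library.

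The 10 genes and the other lists were chosen with earlier results of these data known. Named besides the 10 were, of each list, the 2 genes with the largest change among those called in batch 1 (in other contrasts the 1 with the smallest adjusted p), the 2 genes most correlated with each of the 10, and zld, bcd, aub and piwi; not all are printed, and 1 correlated gene is not reported here. Gene positions come from RefSeq (Release 6 assembly) matched by Entrez identifier for 13631 of 13931 rows. Of 136 genes on the other lists, 135 were in the table. Promoter sequences were not analysed here.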

Additional observations from a re-analysis of the deposited data

Results flagged for a closer look

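The level of tll in paternal aub library 2 of batch 2, 4.15 CPM, stood apart from the other 4 paternal aub libraries, of which the nearest was at 2.05 CPM; the gap was 0.794 of the group's range. Of 20 such groups of 5 libraries tested, each joined both batches of a genotype. Chance alone flags about 1 in 20 groups drawn from a single population, a rate that need not hold across batches. The contrast of paternal aub with WT differed between batches for hb (edgeR adjusted p = 2.25e-04), ftz (edgeR adjusted p = 0.0385) and run (edgeR adjusted p = 0.0417), by the test of the difference itself; the maternal transcript sums given above moved with the same libraries, and their part was not tested.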

How the results depend on the processing

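Batch 1 calls of hb, ftz, h and run held in all 6 fits that left out 1 library. Members called ranged from 4 to 7 there, 2 to 3 between WT batches and 1 to 5 for the difference between batches (main 5, 3 and 3); the last fell to 1 without paternal aub library 1 or WT library 1 of batch 1, or either WT library of batch 2, and was 5 without WT library 2 of batch 1. It was 0 in each batch 2 contrast and between paternal batches. Genes called ranged from 3545 to 5526 for paternal aub against WT in batch 1, 1932 to 4965 between WT batches (2578 without WT library 1 and 1932 without WT library 2 of batch 2), 437 to 1702 between paternal batches (669 without paternal library 1 and 437 without paternal library 2 of batch 2), 792 to 3611 for the difference (817 without paternal library 2, 1140 without WT library 1 and 792 without WT library 2 of batch 2, 3611 without WT library 2 of batch 1), and 1 to 1, 1 to 4 and 0 to 0 for paternal aub against WT, maternal aub against WT and paternal against maternal aub in batch 2.

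In batch 2, fits of only the 2 groups called 85, 392 and 67 genes in those 3 contrasts (2, 7 and 0 in the fit of all groups), and with a replicate block 35, 763 and 7. Only 8 of the 10 genes were tested in each of these fits, as gt and ftz did not pass the filter, and 0 of the 8 were called. DESeq2 called 25 and no filter 11 for maternal aub against WT, and DESeq2 5 for paternal against maternal aub. Deviations of same-numbered libraries correlated at r = -0.14, -0.06 and 0.08 in batch 1, and at -0.02, 0.13 and -0.05 in the 3 batch 2 contrasts, where 2 libraries a group give 1 value each and cannot settle the pairing; no label ties the numbers to a shared batch or animal, so they were not taken as pairs. The cause of these shifts was not tested.

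Over both batches, the mean of the 2 paternal contrasts called 2 of the 10 genes and 1507 genes (14.5%), hb at -1.77 and run at -1.28; with no batch term the counts were 0 and 6 and with an additive one 0 and 33. Maternal aub against the mean of both WT batches called 1 (hb, -2.31) and 938 genes (9.04%), against 0 and 3 with no batch term and 0 and 1 with an additive one. The sign of kni over both batches turned (-0.0012 and -0.0031).

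Of the log2 fold changes that failed the threshold, some changed sign when 1 library was left out, named here by the value without it. In paternal aub against WT of batch 1, tll became 0.19 (WT 1) and kni 0.15 (WT 2). In that contrast of batch 2, eve became -0.0020 (paternal 1), kni -0.12, gt -0.81 and run 0.26 (paternal 2), odd -0.10 (WT 1) and run 0.20 (WT 2), and hb in maternal aub against WT became -0.041 (WT 2). In paternal against maternal aub, kni became 0.069 and tll 0.32 (paternal 1), eve 0.30 and ftz -3.32 (paternal 2), eve 0.12 and ftz -1.07 (maternal 1) and tll 0.087 (maternal 2), besides ftz at -0.21 in DESeq2 and tll at 0.022 in the fit of 2 groups. Between WT batches, Kr became 0.36 and tll 0.23 (WT 1 of batch 1), kni 0.12 (WT 2 of batch 1) and tll 0.31 (WT 1 of batch 2). Between paternal batches, gt became -0.019 with RLE factors, -0.095 in DESeq2, -0.44 (paternal 2 of batch 1) and -1.60 (paternal 2 of batch 2), run 0.29 (paternal 3 of batch 1) and 0.40, kni -0.15 and ftz -2.64 (paternal 2 of batch 2). In the difference between batches, kni became -0.060 (paternal 2 of batch 2) and -0.068 (WT 2 of batch 1). The ftz values rest on 0 to 5 counts and are not sizes. The promoter motif description could not be run without promoter sequences.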
